A study of Mus musculus with 23 samples.

Results

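Imprinted genes are transcribed from only the maternal or only the paternal chromosome, and here 39 of them were followed through every library of a mouse RNA sequencing study of LIN28. They were chosen from a list of names by the parental allele known to be expressed and by gene cluster, out of 53715 genes in each expression table. All 39 were found, 38 by their symbol and Rtl1 by its identifier. In most tissues 22 are expressed from the paternal and 10 from the maternal allele, and for 7 (Grb10, Commd1, Ube3a, Inpp5f, Blcap, Gnas and Gab1) the allele depends on the tissue or transcript. They lie in 17 clusters on 10 chromosomes. Germline DNA methylation is laid down in the oocyte at the clusters of 29 and in sperm at those of 8, while Slc38a4 and Gab1 depend on a histone mark of the oocyte (H3K27me3) instead. Levels were measured without telling the alleles apart, so the values below are the sum over both.

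The 23 libraries fell into 9 groups. Embryonic stem (ES) cells, labelled as derived from the inner cell mass, made up 5 groups of 3 libraries: untreated wild-type cells, Lin28a knockout cells (titled a null), Lin28b knockout cells (titled b null), untreated ilet7 cells, which carry let-7 microRNA under a doxycycline switch, and ilet7 cells given doxycycline for 3 days. Induced pluripotent stem (iPS) cells reprogrammed from mouse embryonic fibroblasts made up a wild-type group and a Lin28a/b double knockout group of 3 libraries each. Both kinds of cell grew for 2 days on fibroblast feeders in LIF/2i medium, and fibroblasts were depleted before RNA was taken. The last 2 libraries were C57BL/6J embryo pools, titled WT and siLin28. Zygotes had received non-targeting or Lin28a siRNA, and both treatment labels read Lin28 knockdown, so the titles decide the groups. The sources give several origins for knockout ES cells (CRISPR clones and knockout mice) and do not say which apply here, so a difference between lines and a difference of genotype cannot be told apart. The lines also differed in RNA of 4 Y-linked genes (Ddx3y, Eif2s3y, Kdm5d and Uty), whose summed level had a mean of 0.552 TPM in wild-type ES cells, 30.9 TPM in Lin28a-null cells, 7.78 TPM in the libraries labelled Lin28b-null and 20.8 TPM in untreated ilet7 cells. In iPS cells it was 10.2 TPM in wild type and 123 TPM in double knockout, and the part of this difference in any result was not tested. No label says that libraries of a group came from separate cultures, so p-values measure only the spread between these libraries, which may be technical.

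Values were TPM, transcript counts scaled for gene length and to a common library total, which keep no record of sequencing depth. Each library had between 14621 and 17923 genes at 1 TPM or more, and Pou5f1, the core pluripotency factor OCT4, lay between 1347 and 1771 TPM in the ES libraries. Lin28a mRNA was present in the Lin28a-null libraries at 14.6, 21.0 and 15.8 TPM, all under the wild-type values of 31.5, 61.2 and 32.0 TPM. Lin28b mRNA went against the label of the Lin28b-null libraries, with 12.5, 13.8 and 12.6 TPM against 3.63, 5.18 and 4.69 TPM in wild type. It was also higher in the libraries labelled double knockout, at 10.3 to 11.6 TPM against 2.16 to 4.14 TPM in wild-type iPS cells. Transcript level does not show whether protein was made, and these groups are called by their labels. Fibroblast markers remained in all cell libraries, with a summed level over 28 genes from 2307 to 8243 TPM. Wild-type ES library 2 held more of them (4335 TPM) than the other wild-type ES libraries (2307 and 2503 TPM).

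LIN28A and LIN28B are RNA-binding proteins that stop let-7 precursors from maturing, and they are high in early embryos and in pluripotent cells. Imprints are set in the germ line as methylated CpG stretches called imprinting control regions. In early embryos and ES cells the zinc finger protein ZFP57 binds a methylated hexamer in many of these regions and recruits TRIM28, which keeps the methylation in place while the rest of the genome is erased. Cultured pluripotent cells are known to lose or gain imprints as lines. A gene that loses its mark can then be read from both copies, and a gene that gains it on the active copy can fall silent.

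The 250 bases before the transcription start were available from RefSeq (GRCm38.p6) for 31 of the 39 genes. The hexamer TGCCGC or its reverse complement GCGGCA stood in such a window in 4 of these 31 (12.9%): Plagl1, Mest, Zim1 and Meg3. Over 27025 genes with a window the share was 9.84%. The 4 promoters below are shown because levels of these genes divided the cell lines, and capitals mark the hexamer on either strand.
Plagl1, chr10:13090582-13090831, + strand: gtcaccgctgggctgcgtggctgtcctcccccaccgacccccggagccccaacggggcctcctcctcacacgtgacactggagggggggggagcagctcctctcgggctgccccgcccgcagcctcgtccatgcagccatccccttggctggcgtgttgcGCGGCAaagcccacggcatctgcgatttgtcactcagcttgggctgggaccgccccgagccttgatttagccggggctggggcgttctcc
Mest, chr6:30737800-30738049, + strand: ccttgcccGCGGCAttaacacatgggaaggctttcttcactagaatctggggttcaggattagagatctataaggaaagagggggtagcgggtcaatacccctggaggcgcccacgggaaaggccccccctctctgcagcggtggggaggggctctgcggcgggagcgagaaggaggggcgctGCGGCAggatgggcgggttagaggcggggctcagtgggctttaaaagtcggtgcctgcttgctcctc
Zrsr1, chr11:22971755-22972004, + strand: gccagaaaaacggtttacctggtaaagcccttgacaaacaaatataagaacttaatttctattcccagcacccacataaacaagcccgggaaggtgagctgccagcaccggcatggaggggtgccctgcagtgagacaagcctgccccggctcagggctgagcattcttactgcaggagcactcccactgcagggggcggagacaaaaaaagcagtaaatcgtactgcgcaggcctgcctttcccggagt
Grb10, chr11:12037421-12037670, - strand: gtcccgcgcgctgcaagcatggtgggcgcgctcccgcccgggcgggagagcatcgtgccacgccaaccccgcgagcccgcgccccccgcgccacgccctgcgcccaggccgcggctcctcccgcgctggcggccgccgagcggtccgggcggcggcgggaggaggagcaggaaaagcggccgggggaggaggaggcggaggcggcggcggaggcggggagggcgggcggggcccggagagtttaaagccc
Plagl1 held the hexamer once and Mest 2 times. The windows of Zrsr1 and Grb10 did not hold it. CpG pairs numbered 19 in the Plagl1 window, 14 in that of Mest, 8 in that of Zrsr1 and 40 in that of Grb10. The median over all windows was 6. For genes with several windows the one with the most CpG pairs is shown, so these counts cannot be judged against that median. Another Mest window had 7 CpG pairs and no hexamer, and another Grb10 window had 8 CpG pairs. A match of letters is a description of the window and no evidence of binding, and the files hold no methylation values.

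In wild-type ES cells 31 of the 39 genes had a mean of at least 1 TPM and 5 had at least 100 TPM. The libraries labelled Lin28b-null had the fewest at 1 TPM or more among the cell groups, 29, and those labelled double knockout the most, 34. Impact, an inhibitor of the GCN2 stress kinase, Gnas, which encodes a stimulatory G protein subunit, and Gab1, a signalling adaptor, were among the highest genes in all 7 cell groups. Their group means lay between 79.4 and 160.0 TPM for Impact, between 135 and 260 TPM for Gnas and between 98.8 and 175 TPM for Gab1. Dlk1, Rtl1 and Rian were listed at 0 in all 21 cell libraries. Some housekeeping genes were listed at low values too, with Gapdh between 9.57 and 218 TPM in the ES libraries and only uniquely mapped reads counted, so a listed 0 is no proof of silence.

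**Figure D1:**
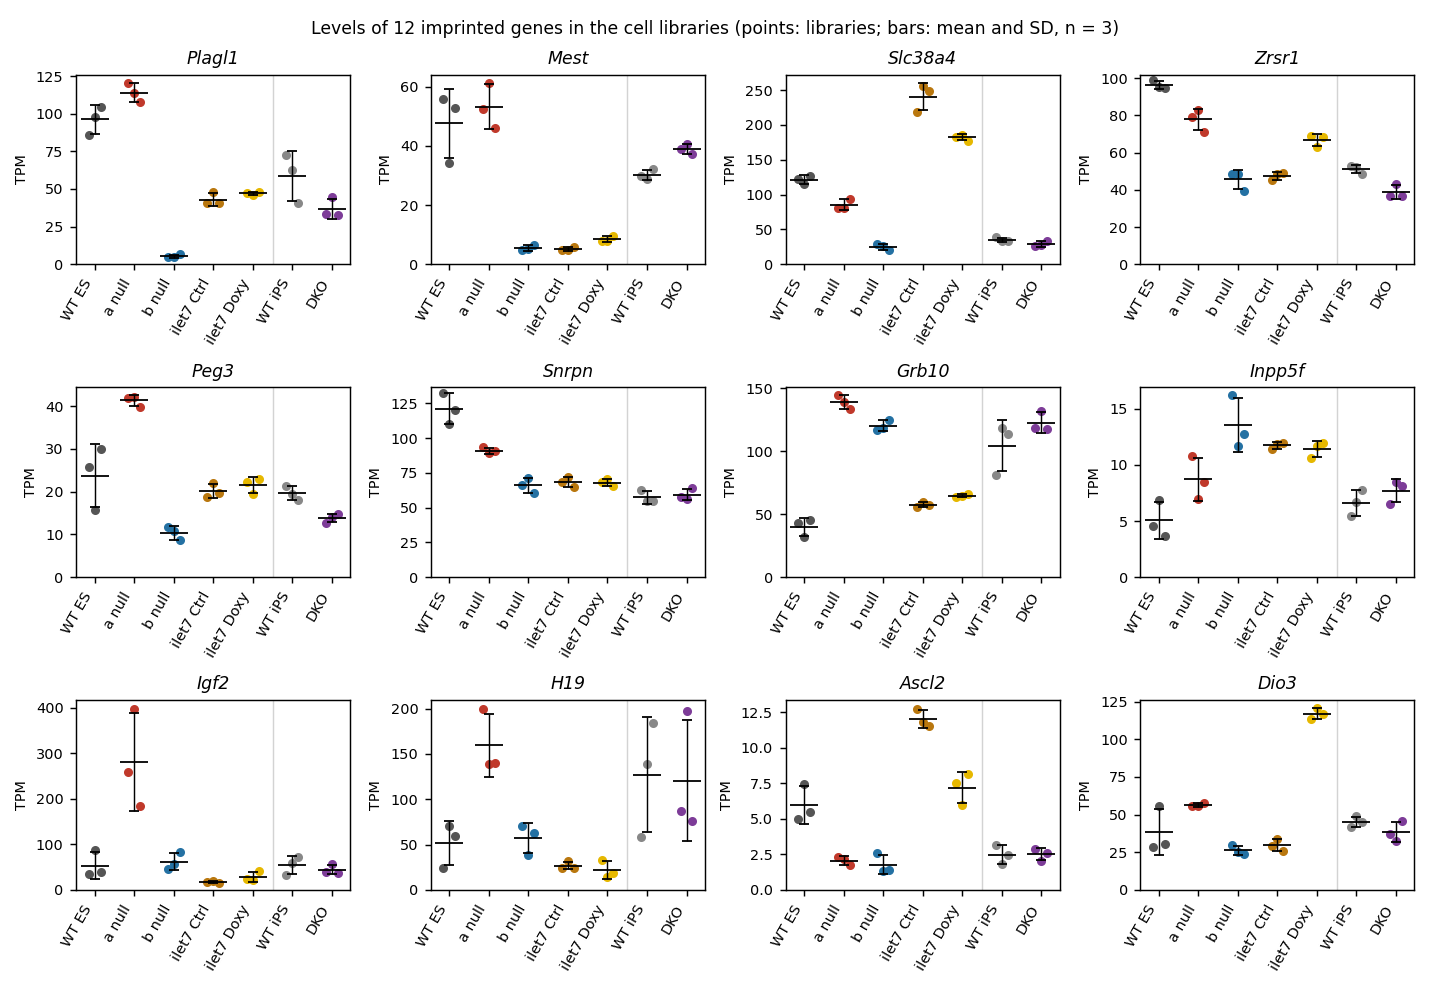
TPM, on linear axes from 0, for 12 imprinted genes in the 7 cell groups, with a point for each library and a bar for the group mean with its SD (n = 3). Plagl1 lay at 4.70 to 6.52 TPM in the libraries labelled Lin28b-null and at 32.6 TPM or more in the other cell libraries, and Mest was at 9.66 TPM or less in the libraries labelled Lin28b-null and in both ilet7 groups.

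The 4 ES lines grown without doxycycline differed widely in these genes. Of 30 that reached a mean of 1 TPM, 27 passed the limma F test over the 4 lines at an adjusted p under 0.05, beside 72.1% of all 15970 genes tested. The distance between the highest and lowest line mean had a median of 1.14 on the log2(TPM + 1) scale, against 0.70 over all genes. It was beyond 1 for 17 of the 30 genes and beyond 2 for 7 (Plagl1, Igf2, Slc38a4, Mest, Peg10, H19 and Ascl2). The shares of all genes past these distances were not counted, so these counts have no background beside them. The 3 genes that did not pass were Mirg (adjusted p = 0.100), Gnas (0.117) and Commd1 (0.0595). The call of Sgce was lost without untreated ilet7 library 2 or 3 (limma adjusted p = 0.0601 and 0.0726), that of Ube3a without Lin28a-null library 1 (0.0602) and that of Igf2r without Lin28b-null library 2 (0.0543). The highest mean was found in a different line from gene to gene. Plagl1, Mest, Igf2, H19, Peg3, Ndn and Grb10 were highest in Lin28a-null cells, Slc38a4 and Ascl2 in untreated ilet7 cells, and Peg10, Phlda2 and Inpp5f in the libraries labelled Lin28b-null.

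Plagl1, Mest and Slc38a4 fell steeply in the libraries labelled Lin28b-null and Grb10 rose. Of 30 imprinted genes tested against wild type, 9 fell and 2 rose (36.7%), beside 15.1% lower and 13.4% higher over all 15526 genes and 28.6% in either direction. A change beyond 1 on the log2 scale was found for 7 that fell and 2 that rose (5.6% and 3.45% of all genes), and 15 of the 30 had no overlap between the groups (46.3%). The 9 that fell comprised 8 of the 17 paternally expressed genes tested (Plagl1, Mest, Slc38a4, Zrsr1, Peg3, Usp29, Snrpn and Impact) and Ascl2, 1 of 6 maternally expressed genes. The other 9 paternally expressed genes did not pass, among them Peg10, Ndn, Peg12 and Mkrn3 with log2 changes of 0.75, 0.75, 0.70 and 0.66. Usp29 reached the filter of 1 TPM only through wild type, and without it 7 of 16 fell. Grb10 and Inpp5f rose, both of the class whose allele depends on tissue or transcript. The median change was -0.47 on the log2 scale over the paternally expressed genes and -0.30 over the maternally expressed genes, against -0.01 over all genes. Fibroblast markers in these libraries summed to 2593 to 3801 TPM, within the wild-type range of 2307 to 4335 TPM, and 2 of the 28 rose while 3 fell.

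Plagl1 (chr10:13060504-13131694), a zinc finger factor that restrains growth and regulates other imprinted genes, gave the largest change of the 39. Its level was 85.6, 98.1 and 105 TPM in wild type and 4.71, 4.70 and 6.52 TPM in the libraries labelled Lin28b-null. All the latter lay far below all the former, and the means were 18.1-fold apart (log2 change -3.95 ± 0.15 (SE), limma adjusted p = 1.4e-05). Mest (chr6:30723547-30748465), which encodes a hydrolase-like protein of mesoderm and fat cells, stood at 55.9, 34.4 and 52.9 TPM in wild type and at 4.78, 5.01 and 6.63 TPM in those libraries. The groups did not overlap, and the mean was 8.72-fold lower (log2 change -2.89 ± 0.21, adjusted p = 0.00021).

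Slc38a4 (chr15:96994820-97055956), an amino acid transporter imprinted through the oocyte histone mark, had 122, 115 and 127 TPM in wild type and 28.6, 25.9 and 19.9 TPM in the libraries labelled Lin28b-null. It was 4.89-fold lower there (log2 change -2.26 ± 0.14, adjusted p = 0.0001), again with no overlap. Zrsr1 (chr11:22972005-22976496), a splicing factor gene lying in an intron of Commd1, had 98.8, 95.3 and 94.8 TPM against 48.8, 48.5 and 39.4 TPM, a fall of 2.11-fold (adjusted p = 0.00058). Its host gene Commd1, a copper handling factor, had a mean of 36.4 ± 5.20 TPM (SD, n = 3) in wild type and 30.3 ± 4.82 TPM in the Lin28b-labelled libraries and did not pass. Whether strand was used in counting is not given in the sources used here, so reads of Zrsr1 and Commd1, which lie on opposite strands, may have been shared.

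Peg3 (chr7:6703892-6730431), a large zinc finger protein that governs growth and maternal behaviour, had 25.8, 15.6 and 29.9 TPM in wild type and 11.7, 10.7 and 8.63 TPM in the libraries labelled Lin28b-null. The lowest wild-type library still lay above all of these (log2 change -1.09 ± 0.24, adjusted p = 0.0157), although the call was lost without wild-type library 1 or 3 (adjusted p = 0.0561 and 0.0532). Usp29, a deubiquitinase gene that starts beside Peg3 on the other strand, had 3.18, 2.15 and 3.14 TPM in wild type and 0.640, 0.566 and 0.332 TPM in these libraries, and is given as levels only because it was tested through its wild-type level. Zim1, the maternally expressed neighbour of Peg3, stayed under 1 TPM in mean in both groups and was not tested. Snrpn, a component of splicing particles at the start of the Prader-Willi cluster, fell from 133, 110.4 and 120.4 TPM to 66.5, 71.0 and 60.4 TPM, or 1.83-fold (adjusted p = 0.0011). Impact fell 1.82-fold (adjusted p = 0.00098).

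Grb10 (chr11:11930508-12038683), an adaptor that damps insulin and growth factor signalling, is expressed from the maternal allele in most tissues and from the paternal allele in neurons. It had 43.0, 31.8 and 45.2 TPM in wild type and 117, 118 and 125 TPM in the libraries labelled Lin28b-null, a 3.00-fold higher mean (log2 change 1.58 ± 0.14, adjusted p = 0.00038). Inpp5f (chr7:128611328-128696425), an inositol phosphatase gene with a paternally expressed transcript in brain, had 4.59, 6.89 and 3.67 TPM against 16.3, 11.7 and 12.8 TPM, or 2.69-fold higher (adjusted p = 0.0065). Neither gene overlapped between the groups. Ascl2 (chr7:142966829-142969264), a transcription factor of placental trophoblast, fell from 4.97, 7.47 and 5.50 TPM to 2.56, 1.36 and 1.43 TPM (log2 change -1.34 ± 0.24, adjusted p = 0.0066).

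Untreated ilet7 cells also had low Mest and Plagl1, while Slc38a4 was high. Of 30 genes tested against wild type, 8 fell and 4 rose (40%), beside 8.46% lower and 9.18% higher over all 15693 genes and 17.6% in either direction. Of these, 6 fell and 1 rose by more than 1 on the log2 scale (2.26% and 2.59% of all genes), and 18 of the 30 did not overlap (40.2%). The 8 that fell were Plagl1, Mest, Peg10, Sgce, Zrsr1, Snrpn, Igf2 and Impact, all among the 17 paternally expressed genes tested. Slc38a4, also paternally expressed, rose. Of the 6 maternally expressed genes tested none fell and Ascl2 rose. Grb10 and Inpp5f, whose allele depends on tissue or transcript, rose as well. The count of 12 dropped to 5, 7 and 6 without ilet7 library 1, 2 and 3 and rose to 16 without wild-type library 2. This comparison and the previous one share the wild-type libraries.

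Mest in untreated ilet7 cells had 4.94, 4.77 and 5.78 TPM, 9.24-fold under wild type (log2 change -2.96 ± 0.20, limma adjusted p = 0.00024) and close to the values of the libraries labelled Lin28b-null. Plagl1 had 40.4, 47.9 and 40.6 TPM, 2.24-fold under wild type (adjusted p = 0.001). Zrsr1 had 45.2, 48.3 and 48.9 TPM, 2.03-fold lower (adjusted p = 0.00025), and Snrpn had 68.2, 72.1 and 65.2 TPM, 1.77-fold lower (adjusted p = 0.0018). No ilet7 library overlapped wild type in these 4 genes. Slc38a4 went the other way, with 219, 256 and 248 TPM, 1.99-fold above wild type (adjusted p = 0.00057). Ascl2 likewise was higher, with 12.7, 11.8 and 11.6 TPM (log2 change 0.91 ± 0.16, adjusted p = 0.0118), a call that was lost without ilet7 library 1 (0.0529).

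Peg10 (chr6:4747306-4760517), derived from a retrotransposon and needed for the placenta, and Sgce (chr6:4674350-4747207), a sarcoglycan, start side by side on opposite strands and were both low in untreated ilet7 cells. Peg10 had 11.1, 43.4 and 11.1 TPM in wild type and 3.58, 4.75 and 4.26 TPM in ilet7 (log2 change -1.85 ± 0.49, adjusted p = 0.0433). Sgce had 11.9, 31.0 and 9.60 TPM against 6.36, 4.68 and 4.08 TPM (log2 change -1.45 ± 0.40, adjusted p = 0.04996). In both genes wild-type library 2, the library with the most fibroblast marker RNA among wild type, was the high one, and the part of that RNA in the difference was not tested. Both calls were lost without any single ilet7 library and without wild-type library 3 for Peg10 or 1 for Sgce, with adjusted p up to 0.127 for Peg10 and 0.143 for Sgce, and also with no filter on low values (0.0897 and 0.101) or no variance trend (0.0629 and 0.0696). In the libraries labelled Lin28b-null Peg10 had 26.2, 26.9 and 39.7 TPM, inside the wild-type range. Sgce had 12.7, 11.2 and 9.42 TPM there, overlapping wild type, with the last value just under the lowest wild-type library (9.60 TPM). Inpp5f had 11.4, 11.8 and 11.97 TPM in ilet7 (log2 change 1.11 ± 0.20, adjusted p = 0.0131). Grb10 had 55.5, 59.6 and 57.6 TPM (log2 change 0.53 ± 0.14, adjusted p = 0.039). Leaving out any ilet7 library ended the call of both, with adjusted p from 0.0506 to 0.0544 for Inpp5f and up to 0.118 for Grb10, whose call was also lost without wild-type library 1 (0.0616) and under 4 other alternatives (up to 0.0715). Impact had 97.4, 108 and 99.99 TPM against 145, 128 and 159.6 TPM, 1.42-fold lower (adjusted p = 0.0142), and lost its call without ilet7 library 1 or 3 (0.0571 and 0.0573).

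In Lin28a-null cells genes moved in both directions, and fibroblast marker RNA was higher than in wild type. Of 31 genes tested against wild type, 8 rose and 5 fell (41.9%), beside 20.4% higher and 17.8% lower over all 16060 genes and 38.2% in either direction. Changes beyond 1 numbered 4 higher and 1 lower (9.23% and 4.34% of all genes), and 18 of the 31 did not overlap (53.2%). The risers were Igf2, Grb10, H19, Ndn, Cdkn1c, Peg3, Nnat and Blcap, and the fallers were Ascl2, Slc38a4, Commd1, Snrpn and Zrsr1. Of the 28 fibroblast markers 25 rose and none fell, with a median log2 change of 1.798, and their sum was 5709 to 7635 TPM against 2307 to 4335 TPM in wild type. Fewer cells of a type and less RNA per cell cannot be told apart in such bulk libraries. The count of 13 was 8 without Lin28a-null library 1 and 17 without wild-type library 2.

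H19 and Igf2 are neighbours on chromosome 7 that share enhancers and are expressed from opposite alleles, a non-coding RNA from the maternal and a fetal growth factor from the paternal chromosome. Igf2 (chr7:142650766-142666816) had 34.3, 87.3 and 39.1 TPM in wild type and 259, 397 and 185 TPM in Lin28a-null cells (log2 change 2.42 ± 0.40, adjusted p = 0.0038). H19 (chr7:142575529-142578143) had 24.1, 70.1 and 59.8 TPM in wild type and 199.7, 138 and 140.0 TPM in Lin28a-null cells (log2 change 1.73 ± 0.38, adjusted p = 0.0115). Both members of the pair therefore rose together, with no overlap between groups. Wild-type library 2, with the most fibroblast marker RNA of its group, was also the highest of its group in both genes. Among Lin28a-null libraries, library 1 had the most marker RNA (7635 TPM) and the highest H19. Igf2 was highest there in library 2, at 5919 TPM of marker RNA. Double knockout iPS libraries, normalized separately, had 5832 to 8243 TPM of marker RNA, with Igf2 at 38.1 to 57.2 TPM and H19 at 76.4 to 197 TPM. The part of fibroblast RNA in the rise of either gene was not tested. In untreated ilet7 cells, whose marker sum was 2325 to 2527 TPM, Igf2 had 16.9, 20.1 and 16.3 TPM (log2 change -1.42 ± 0.33 against wild type, adjusted p = 0.0278, up to 0.0902 with 1 ilet7 library or wild-type library 3 left out and 0.061 with no filter on low values). H19 there had 24.5, 31.7 and 24.2 TPM and did not pass. In the libraries labelled Lin28b-null Igf2 had 46.3, 56.5 and 84.0 TPM and H19 had 70.0, 38.1 and 62.3 TPM, overlapping wild type.

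**Figure D2:**
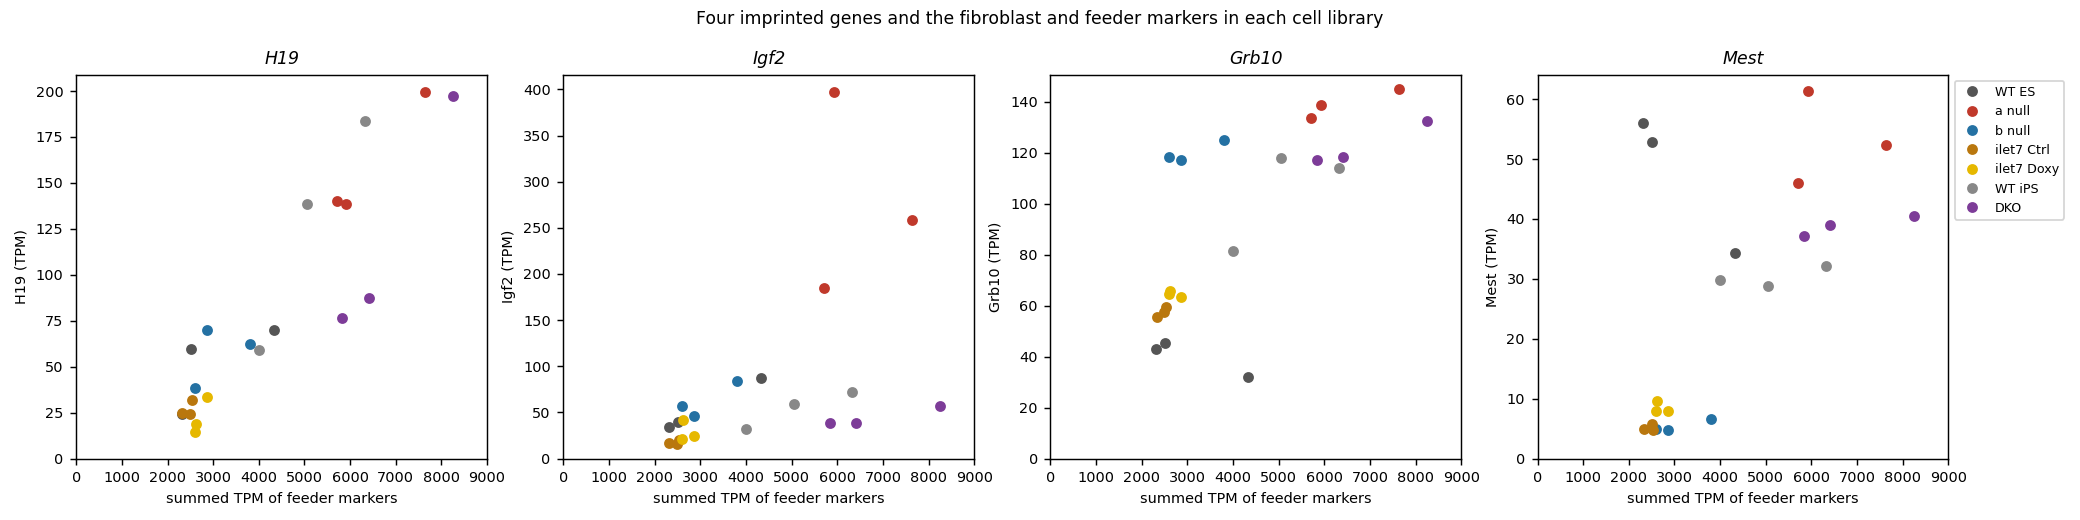
TPM of H19, Igf2, Grb10 and Mest (linear axes) against the summed TPM of 28 fibroblast markers in the 21 cell libraries, with 1 point per library coloured by group. Lin28a-null libraries, at 5709 to 7635 TPM of marker RNA, held the highest Igf2, while Mest was low in libraries with 2325 to 3801 TPM of marker RNA and at 34.4 TPM or more in the wild-type ES libraries with 2307 to 4335 TPM.

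Grb10 had 145, 139 and 134 TPM in Lin28a-null cells, 3.48-fold above wild type (log2 change 1.79 ± 0.13, adjusted p = 0.00018). Grb10 was 31.8 TPM in wild-type library 2, at 4335 TPM of fibroblast marker RNA. It was 43.0 and 45.2 TPM in wild-type libraries 1 and 3, at 2307 and 2503 TPM. The libraries labelled Lin28b-null had 117 to 125 TPM of Grb10 at 2593 to 3801 TPM of marker RNA. Ndn (chr7:62346569-62350262), a MAGE family protein of neurons that limits proliferation, rose from 3.77, 4.69 and 4.21 TPM to 16.8, 14.2 and 13.1 TPM (log2 change 1.58 ± 0.15, adjusted p = 0.00051). Cdkn1c (chr7:143458339-143461050), the cyclin-dependent kinase inhibitor p57, rose from 4.26, 4.26 and 4.06 TPM to 11.3, 7.77 and 8.42 TPM (log2 change 0.95 ± 0.17, adjusted p = 0.0052). None of these 3 genes overlapped between the groups. Fibroblast markers rose in the same comparison, and their part in the rise of these 3 genes was not tested.

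Ascl2 fell to 2.30, 2.18 and 1.72 TPM in Lin28a-null cells (log2 change -1.18 ± 0.19, adjusted p = 0.0038). Of 7 trophoblast markers tested in this comparison 4 fell and 1 rose (71.4%, beside 38.2% of all genes in either direction), with a median log2 change of -0.87. Their sums over 10 genes were 111 to 115 TPM against 180.3 to 224 TPM in wild type. In the libraries labelled Lin28b-null, where Ascl2 also fell, 2 of 7 rose and 2 fell (57.1% beside 28.6%), with sums of 195 to 212 TPM. On doxycycline, where Ascl2 fell, 3 of 7 rose and 1 fell (57.1% beside 19%). In untreated ilet7 cells, where Ascl2 rose, 2 of 7 rose and none fell (28.6% beside 17.6%). In double knockout iPS cells 1 of 6 rose and 5 fell (100% beside 16.3%), and Ascl2 did not pass. The part of these markers was not tested. Slc38a4 fell in Lin28a-null cells to 80.7, 81.1 and 94.1 TPM, 1.42-fold under wild type (limma adjusted p = 0.004). Ascl2 and Slc38a4 moved there in the same direction as in the libraries labelled Lin28b-null, while Peg3 went the other way. Peg3 had 42.0, 42.2 and 39.8 TPM in Lin28a-null cells (log2 change 0.82 ± 0.22, adjusted p = 0.0232), a call lost without any single Lin28a-null library (adjusted p up to 0.0715). Plagl1 had 120.2, 114 and 108 TPM and Mest had 52.4, 61.3 and 46.0 TPM, and neither passed. The smaller changes of Nnat, Blcap, Commd1 and Zrsr1 (log2 changes of 0.60, 0.48, -0.45 and -0.31) were each lost with at least 3 of the 6 libraries left out in turn. The other faller, Snrpn, had 93.3, 89.0 and 90.9 TPM (log2 change -0.40 ± 0.08, adjusted p = 0.008).

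The other genes named for a change elsewhere did not pass against wild type in these lines. In Lin28a-null cells Peg10 had 21.6, 22.1 and 18.7 TPM, Sgce had 15.4, 8.99 and 9.45 TPM and Inpp5f had 10.8, 6.93 and 8.50 TPM. Ndn had 6.50, 5.58 and 12.5 TPM in the libraries labelled Lin28b-null and 4.78, 5.31 and 5.85 TPM in untreated ilet7 cells. Cdkn1c had 4.08, 3.62 and 2.53 TPM and 4.94, 5.80 and 6.92 TPM in the same order, and Peg3 in untreated ilet7 cells had 18.7, 22.1 and 19.8 TPM. Wild-type levels were 15.4, 32.7 and 14.2 TPM for Phlda2, 28.7, 55.7 and 30.3 TPM for Dio3 and 17.5, 24.1 and 12.8 TPM for Mirg, with library 2 the highest in all 3. Mirg had 17.9, 12.4 and 10.2 TPM in Lin28a-null cells and 11.1, 12.96 and 6.39 TPM in the libraries labelled Lin28b-null.

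The difference between the knockout lines was tested directly, and most imprinted genes were higher in Lin28a-null cells. Of 31 imprinted genes tested, 19 were higher in Lin28a-null cells and 4 were lower (74.2%), beside 25.8% higher and 21.1% lower over all 15974 genes and 46.9% in either direction. Differences beyond 1 numbered 8 higher and 1 lower (11.1% and 4.28% of all genes), and 24 of the 31 did not overlap (58.5%). The median difference was 0.64 on the log2 scale for the 31 genes against 0.02 for all genes. Among paternally expressed genes 12 of 18 were higher and 2 (Peg10 and Mkrn3) were lower. Usp29 and Airn, among the 12, reached the filter only through Lin28a-null cells, and without them 10 of 16 were higher. Several calls depended on the processing. Of 14 alternatives Ndn passed in 5, Ube3a in 6, Peg10 and Grb10 in 7, Inpp5f in 9 and Blcap in 13. Airn passed in 6 of 12. The other calls passed in every alternative in which the gene was tested. Plagl1 was 21.5-fold and Mest 9.72-fold higher in Lin28a-null cells (log2 differences 4.20 ± 0.13 and 3.07 ± 0.16, adjusted p = 6.5e-06 and 3.3e-05). Peg3 was 3.99-fold (adjusted p = 7.4e-05) and Impact 1.93-fold (adjusted p = 5.6e-05) higher. Dio3 had 55.6, 55.9 and 57.5 TPM in Lin28a-null libraries and 29.9, 25.0 and 23.9 TPM in the libraries labelled Lin28b-null (log2 difference 1.08 ± 0.10, adjusted p = 0.00026). Phlda2 (chr7:143501545-143503150), which restrains placental growth, was lower, with 16.3, 16.0 and 12.3 TPM against 43.9, 49.1 and 23.2 TPM (log2 difference -1.27 ± 0.28, adjusted p = 0.0092). No library of one group overlapped the other in any of these genes. Fibroblast markers also differed here, 26 of 28 higher in Lin28a-null cells and none lower, and their part was not tested.

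**Figure D3:**
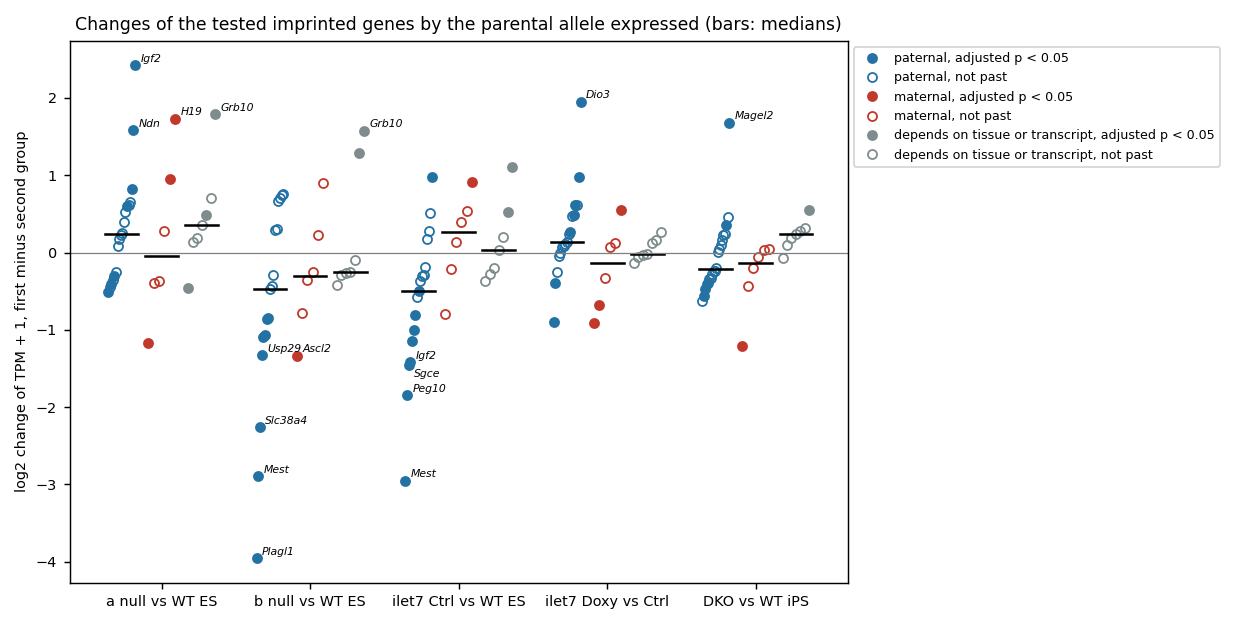
Change on the log2(TPM + 1) scale of each imprinted gene tested in 5 comparisons, split by the allele expressed, with filled points for adjusted p under 0.05 (limma) and bars for class medians. The paternal class extends to -3.95 (Plagl1) in the libraries labelled Lin28b-null and to -2.96 (Mest) in untreated ilet7 cells, and to 1.95 (Dio3) on doxycycline.

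In ilet7 cells given doxycycline for 3 days, which switches on let-7, Dio3 rose, and Phlda2 and Ascl2 of the Kcnq1ot1 cluster fell. Of 30 genes tested between ilet7 cells with and without doxycycline, 6 rose and 4 fell (33.3%), beside 13.3% higher and 5.68% lower over all 15884 genes and 19% in either direction. Only Dio3 rose beyond 1 and no gene fell so far (1.52% and 0.271% of all genes), and 14 of the 30 did not overlap (41%). Over all genes, the share of calls that were higher was 70.1% on the deposited scale, 53.4% after quantile normalization and 54% after median-of-ratios scaling. Lin28a mRNA, a known let-7 target, was 20.4 to 24.9 TPM without and 6.26 to 7.32 TPM with doxycycline. Fibroblast markers rose in 13 of 26 tested and fell in 1, with sums of 2606 to 2855 TPM on doxycycline against 2325 to 2527 TPM.

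Dio3 (chr12:110279068-110281097), the deiodinase that inactivates thyroid hormone, is a single-exon gene at the far end of the Dlk1-Dio3 cluster. It had 29.0, 34.0 and 26.0 TPM without and 113, 121 and 117 TPM with doxycycline, 3.94-fold higher (log2 change 1.95 ± 0.10, adjusted p = 0.00031). The groups lay far apart. In the other 3 ES groups it ranged from 23.9 to 57.5 TPM, so the doxycycline libraries were above all other ES libraries. Mirg (chr12:109729764-109749460), a microRNA host transcript of the same cluster from the maternal allele, rose from 15.9, 14.5 and 14.6 TPM to 26.1, 20.6 and 21.1 TPM (log2 change 0.55 ± 0.11, adjusted p = 0.0153). With all ES libraries in one fit its call was lost (adjusted p = 0.181).

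Peg10 rose with doxycycline to 8.63, 7.98 and 11.1 TPM (log2 change 0.97 ± 0.15, adjusted p = 0.0079, but 0.113 with all ES libraries in one fit) while Sgce, at 7.56, 5.84 and 8.60 TPM, did not pass. Zrsr1 rose to 69.2, 62.9 and 68.2 TPM (log2 change 0.48 ± 0.06, adjusted p = 0.0041) and stayed below its wild-type level. Mest had 7.94, 7.89 and 9.66 TPM (log2 change 0.62 ± 0.12, adjusted p = 0.0166), far under the wild-type level, and its call was lost with 3 of the 6 libraries left out in turn (adjusted p up to 0.054). Impact rose 1.20-fold (adjusted p = 0.0166), and that call was also lost with 3 of the 6 left out (up to 0.0634) and with a replicate block (0.0603).

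Of the 30 genes, 4 fell on doxycycline. Phlda2 went from 32.6, 27.05 and 26.4 TPM to 16.1, 16.5 and 12.2 TPM (log2 change -0.90 ± 0.14, adjusted p = 0.0072), a call lost with all ES libraries in one fit (0.0651). Ascl2, of the same cluster, went to 7.50, 5.97 and 8.12 TPM (log2 change -0.68 ± 0.12, adjusted p = 0.0125). Both are maternally expressed genes held by the Kcnq1ot1 cluster and known for roles in placenta. Usp29 fell from a mean of 4.44 TPM to 1.91 TPM (adjusted p = 0.0082), and Slc38a4 fell to 183, 186 and 177 TPM (log2 change -0.40 ± 0.07, adjusted p = 0.009). Plagl1 had 47.1, 46.0 and 47.9 TPM, Grb10 had 63.5, 64.4 and 65.8 TPM, Igf2 had 24.2, 21.1 and 41.6 TPM, H19 had 33.4, 14.5 and 19.1 TPM, and none of these passed. Inpp5f (10.6, 11.7 and 11.98 TPM), Peg3 (22.3, 19.5 and 22.8 TPM), Ndn (4.59, 6.23 and 6.23 TPM) and Cdkn1c (6.60, 5.57 and 7.28 TPM) did not pass either.

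In iPS cells the libraries labelled double knockout had lower Mirg than wild type, and few other imprinted genes passed. Of 33 genes tested 3 rose and 5 fell (24.2%), beside 8.77% higher and 7.51% lower over all 17557 genes and 16.3% in either direction. Beyond 1 there were 1 higher and 1 lower (4.36% and 2.3% of all genes), and 10 of the 33 did not overlap (37.9%). The count depended on each library, falling to between 2 and 5 with any 1 of the 6 left out (3, 4 and 5 without wild-type library 1, 2 and 3, and 2, 3 and 3 without double knockout library 1, 2 and 3). Mirg passed under all alternatives. Magel2, a MAGE family regulator of protein trafficking, had 0.448, 0.271 and 0.123 TPM in wild type and 2.52, 4.12 and 2.79 TPM in double knockout. It was the gene higher beyond 1, but it reached the filter only through the double knockout libraries, and without it and Usp29, which was also under 1 TPM in one group, 2 of 31 rose and 5 fell. Mirg had 12.5, 17.3 and 11.5 TPM against 5.20, 6.89 and 4.11 TPM (log2 change -1.21 ± 0.22, adjusted p = 0.0127). Neither gene overlapped between the groups. The direction of Mirg was opposite to that seen on doxycycline in ES cells, where let-7 was induced, although these tables were normalized separately and the difference was not tested.

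Plagl1 in iPS cells had 72.7, 62.4 and 40.4 TPM in wild type and 33.7, 44.4 and 32.6 TPM in double knockout, overlapping and not passing. Mest had 29.7, 28.8 and 32.2 TPM against 39.1, 40.6 and 37.2 TPM (log2 change 0.35 ± 0.09, adjusted p = 0.0425), lost with any library left out (up to 0.117). Slc38a4 had 38.5, 33.1 and 34.0 TPM against 26.2, 26.96 and 34.0 TPM and Grb10 had 81.4, 118 and 114 TPM against 118, 132 and 117 TPM, and neither passed. Zrsr1 fell from 52.6, 52.5 and 48.8 TPM to 37.0, 43.1 and 36.4 TPM (adjusted p = 0.0356) and Peg3 from 21.4, 19.5 and 18.1 TPM to 12.8, 14.1 and 14.8 TPM (adjusted p = 0.0394). Peg12, a Frat family protein, fell 1.52-fold, Impact fell 1.34-fold, and Commd1 rose 1.46-fold. These calls and that of Mest also failed in 1 to 4 of the other alternatives. Left-out adjusted p reached 0.107 for Zrsr1, 0.117 for Peg3, 0.0889 for Peg12, 0.0619 for Impact and 0.12 for Commd1. H19 had 58.9, 138 and 184 TPM in wild type and 87.6, 197 and 76.4 TPM in double knockout, and Igf2 had 32.4, 59.2 and 72.6 TPM against 39.03, 57.2 and 38.1 TPM. Fibroblast markers summed to 3998 to 6330 TPM in wild type and 5832 to 8243 TPM in double knockout, with 5 of 28 higher and none lower.

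The remaining genes with changes among the ES lines did not pass in iPS cells. Peg10 lay between 29.5 and 49.2 TPM over the 6 iPS libraries, Sgce between 6.62 and 11.1 TPM, Ndn between 8.01 and 13.7 TPM and Cdkn1c between 5.47 and 15.3 TPM. Phlda2 lay between 15.3 and 24.7 TPM, Ascl2 between 1.79 and 3.15 TPM, Inpp5f between 5.46 and 8.50 TPM and Dio3 between 32.5 and 48.8 TPM. For each of these 8 genes the wild-type and double knockout libraries did not differ beyond the test's threshold.

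In the Dlk1-Dio3 cluster on chromosome 12, Mirg and Dio3 had the highest values, and most genes from Dlk1 to Rian were listed at 0. It normally gives Dlk1, a Notch pathway ligand, Rtl1, a placental capsid-like protein, and Dio3 from the paternal allele, and Meg3, Rian and Mirg from the maternal allele as a chain of non-coding and small RNAs. Dlk1, Rtl1 and Rian were listed at 0 in all ES and iPS libraries. Meg3 stayed at or under 0.122 TPM in the ES libraries and at or under 0.105 TPM in iPS libraries other than double knockout library 1, which had 4.11 TPM. Mirg, further along the same chain, had group means from 5.40 to 22.6 TPM. From Dlk1 to the end of Rian, 45 of 46 genes were at 0 in all 15 ES libraries. Of these 46, 34 are microRNAs or small nucleolar RNAs, which a poly-A selected library rarely captures. In iPS cells 1 of the 46 was above 0 in some library. Of 42 genes after Rian and before Mirg, 10 were above 0 in some ES library and 28 in some iPS library. Of 30 from Mirg to Dio3, 24 were above 0 in some ES library and 23 in some iPS library, and in ES cells 5 had a mean of at least 1 TPM, among them Mirg with 15.9 TPM and Dio3 with 53.5 TPM.

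**Figure D4:**
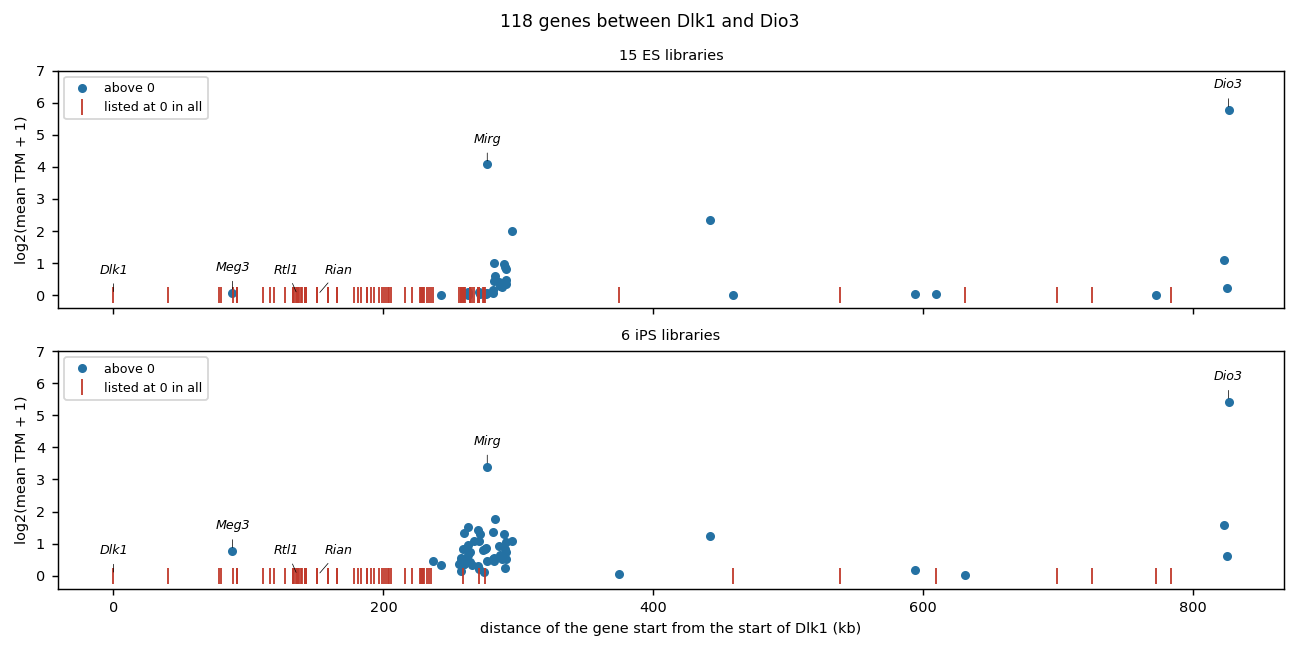
Mean level, as log2(mean TPM + 1), of 118 genes in the Dlk1-Dio3 cluster against distance in kb from the start of Dlk1, in ES and iPS libraries. The part from Dlk1 to Rian lies at 0 or close to it in both kinds of cell, and Mirg and Dio3 stand above the rest.

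Silencing RNAs of other clusters were low in the ES libraries and had higher values in the iPS libraries. Kcnq1ot1, the paternally expressed RNA that silences its neighbours Cdkn1c, Phlda2, Ascl2 and Kcnq1, lay between 0.0171 and 0.118 TPM in ES libraries and between 0.822 and 1.63 TPM in iPS libraries. Nespas, an antisense RNA at Gnas, lay between 0.816 and 4.66 TPM in ES and between 8.90 and 14.6 TPM in iPS libraries. Airn, the antisense silencer of the Igf2 scavenger receptor Igf2r, had group means of 0.253 to 1.78 TPM in ES and 3.17 to 3.57 TPM in iPS cells. These 3 antisense RNAs overlap their partners, so without strand their levels are uncertain. The tables also differ in what they hold, since Rmrp and Rn7sk, RNAs without a poly-A tail, had 4972 to 10371 TPM in iPS libraries and at most 196 TPM in ES libraries, and the part of that difference was not tested. Igf2r itself had group means of 52.8 to 82.9 TPM in ES and 89.4 to 104 TPM in iPS cells. Kcnq1, a potassium channel, stayed under 1 TPM in all cell libraries.

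In the Prader-Willi and Angelman cluster on chromosome 7, Ube3a, the ubiquitin ligase silenced on the paternal allele in neurons, had cell group means between 22.8 and 46.4 TPM. Mkrn3, a ubiquitin ligase that restrains puberty, had 1.95 to 5.66 TPM, and Peg12 had 2.13 to 14.1 TPM. Magel2 stayed under 1.71 TPM in all ES libraries. Snrpn had means of 57.3 to 121 TPM. Members of this cluster did not move together in Lin28a-null cells, where Ndn rose and Snrpn fell. On chromosome 2, Nnat, a small membrane protein lying inside Blcap on the other strand, had means of 2.88 to 6.55 TPM and Blcap, a gene linked to apoptosis, 23.1 to 47.5 TPM. Zim1, a zinc finger gene, had means under 1 TPM in all cell groups, and Usp29 had 0.513 to 4.44 TPM.

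The embryo pools, with 1 library each and so no test, held fewer imprinted transcripts. Of the 39 genes 22 reached a mean of 1 TPM over the 2 pools. By a difference of at least 2-fold on the log2(TPM + 1) scale 2 were higher and 3 lower after Lin28 siRNA, beside 8.28% higher and 7.31% lower over all 14875 genes and 15.6% in either direction. Gab1 was higher, at 14.0 TPM against 4.47 TPM in the control pool, and Phlda2 (4.71 against 12.8 TPM) and Peg3 (2.17 against 5.46 TPM) were lower. The other 2 were Mirg (1.88 against 0.330 TPM) and Nnat (0.331 against 2.51 TPM), which reached the filter only through the pool where each was high. Without them 1 of 20 genes was higher and 2 were lower. Mest lay just under the limit with 13.5 against 27.9 TPM, a log2 difference of -0.998. The median difference was -0.27 over the 22 genes and 0.03 over all genes. Lin28a mRNA was 3.03 TPM in the siLin28 pool and 15.9 TPM in the control, while Lin28b was 5.50 and 2.87 TPM.

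Snrpn was the highest of the 39 in both pools, at 336 TPM in the control and 409 TPM after siRNA. Plagl1 had 2.74 and 1.38 TPM, Grb10 had 3.76 and 5.57 TPM and Zrsr1 had 2.95 and 4.45 TPM. Slc38a4 had 36.5 and 30.2 TPM, Ascl2 had 9.41 and 4.83 TPM, Cdkn1c had 12.4 and 8.14 TPM, Sgce had 10.8 and 15.4 TPM and Inpp5f had 3.01 and 3.20 TPM. H19, Igf2, Peg10 and Dio3 were at 0.292 TPM or less in both pools and Ndn at 0.538 and 0.714 TPM. The 28 fibroblast markers summed to 53.4 and 65.4 TPM there. The embryo table was normalized apart from the cell tables, so its levels stand beside theirs without a test.

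**Figure D5:**
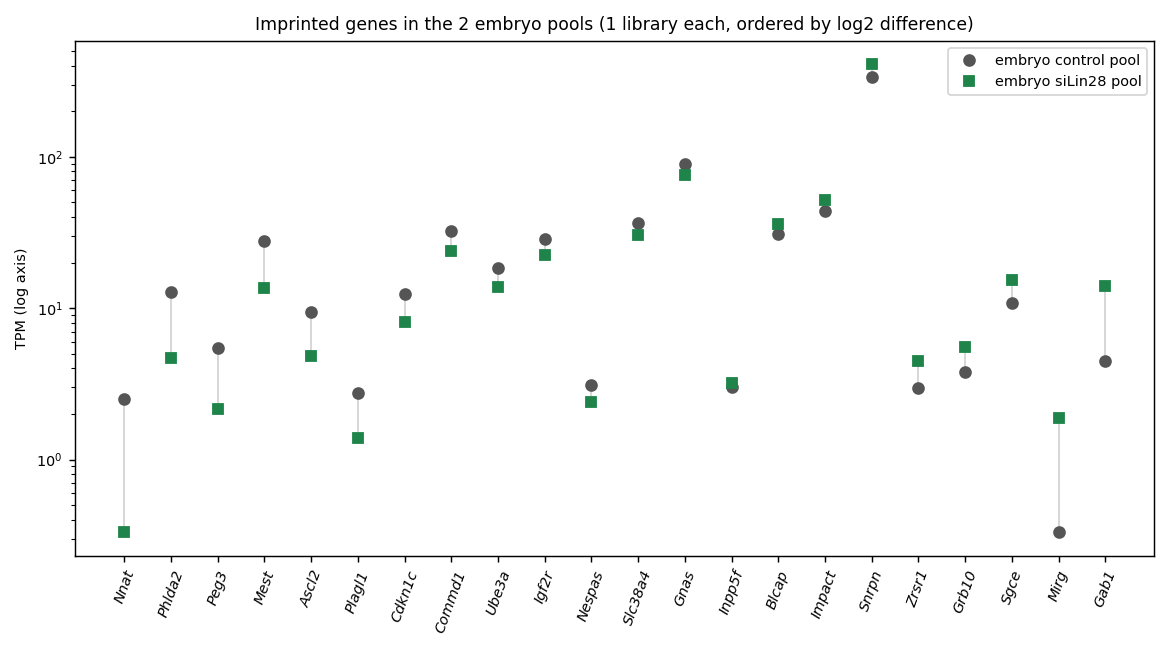
TPM (log axis) of the 22 imprinted genes that reached a mean of 1 TPM, in the control and the siLin28 embryo pool, 1 library each. Gab1 lies higher in the siLin28 pool (14.0 against 4.47 TPM), and Phlda2 and Peg3 lie lower. Nnat lies lower and Mirg higher, but each reached that mean only through the pool where it is high.

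Among genes of imprint maintenance and DNA methylation, which include enzymes that act to remove methylation, Dppa3 fell in each knockout group against wild type and on doxycycline. Of 14 such genes, including Zfp57, Trim28, the DNA methyltransferases and the TET enzymes, 2 rose and 1 fell in Lin28a-null cells (21.4%, under the 38.2% of all genes) and 2 fell in the libraries labelled Lin28b-null (14.3% against 28.6%). Between the knockout lines 6 were higher in Lin28a-null and none lower (42.9% against 46.9%). In untreated ilet7 cells 1 fell (Dnmt3b, log2 change -0.84; 7.14% against 17.6%), on doxycycline 2 rose and 2 fell (28.6% against 19%), and in double knockout iPS cells 3 rose and 2 fell (35.7% against 16.3%). Dppa3, the oocyte and naive cell factor STELLA that shields maternal methylation, had 289, 159 and 269 TPM in wild-type ES cells. It had 38.4, 36.0 and 46.7 TPM in Lin28a-null cells and 24.5, 24.5 and 15.1 TPM in the libraries labelled Lin28b-null (log2 changes -2.50 and -3.41). It also fell on doxycycline (log2 change -0.84) and in double knockout iPS cells (-1.87). Tet2, which oxidises methylated cytosine, rose in Lin28a-null cells (0.91) and on doxycycline (1.26), and Tet1 rose in Lin28a-null cells (0.52). Dnmt3a fell in the libraries labelled Lin28b-null (-1.0005), and Dnmt3l, the cofactor of new methylation, rose in double knockout iPS cells (2.44). Zfp57 itself had 199.4, 365 and 281 TPM in wild-type ES cells and 252, 277 and 326 TPM in the libraries labelled Lin28b-null, fully inside the wild-type range. Its rise in Lin28a-null cells did not pass (log2 change 0.77, adjusted p = 0.0504).

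A further 40 genes described as imprinted were counted in the same way, and each share in brackets stands beside that of all genes in either direction. In Lin28a-null cells 8 of 29 tested rose and 6 fell (48.3% beside 38.2%), led by Xist (log2 change 2.52, in lines that differ in Y-linked RNA), Osbpl5 (1.64), Qpct (-1.40) and Pon3 (1.14). In the libraries labelled Lin28b-null 2 of 28 rose and 10 fell (42.9% beside 28.6%), led by Zfp264 (-2.71) and Zim3 (-1.59) of the Peg3 cluster, Qpct (-1.95) and Smoc1 (-1.38). In untreated ilet7 cells 1 of 28 rose (Ampd3, 0.76) and 3 fell (Zdbf2, -1.42, Peg13, -1.06 and Mcts2, -0.89), or 14.3% beside 17.6%. On doxycycline 7 of 27 rose and 1 fell (29.6% beside 19%), with Pon3 the largest (1.09). In double knockout iPS cells 2 of 28 rose and 3 fell (17.9% beside 16.3%), among them Pon2 (0.75) and Qpct (-0.74). Between the knockout lines 13 of 28 were higher in Lin28a-null cells and 1 was lower (50% beside 46.9%). All these calls used the same limma test and the adjusted p over all genes.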

How the data were processed

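RNA of 23 libraries in 9 groups was sequenced. Per the labels it was selected on poly-T beads, while the methods give this for cells and amplified cDNA for the embryos. Per the labels and methods, the authors ran CASAVA 1.8, Trimmomatic, HISAT2 against mm10, Picard to remove duplicates, kept uniquely mapped reads, and quantified GENCODE genes with StringTie. The deposited values are TPM, in separate ES, iPS and embryo tables that were normalized separately. Unique mapping lowers genes with near-identical copies, and TPM keeps no depth.

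Here log2(TPM + 1) was compared within a table, keeping genes whose average reached 1 TPM over the libraries compared, with limma 3.58.1 (R 4.3.3; moderated test with variance trend, 2-sided, fitted on the 2 groups compared, or an F test over 4 lines) and Benjamini-Hochberg adjustment over all genes at 0.05. Fold changes on this scale understate changes of low genes, while fold values are ratios of mean TPM. The embryo pools have no replicate and were compared without a test. The procedure was tested on simulated data. Replicate numbers did not pair the libraries.

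Genes given with all values reached a mean of 5 TPM in some group and passed with a log2 change beyond 1 in some cell comparison, or were partners of such a gene. The other genes are given by ranges and counts, except that Magel2, Snrpn, Impact and Usp29 are also given by library, chosen after their values were seen. Further lists held imprint maintenance and DNA methylation genes, other imprinted genes and fibroblast markers. The members and lists were chosen with earlier results of these data known. Alternatives were another pseudocount, other filters, quantile and median-of-ratios scaling, no variance trend, one fit for a whole table, a replicate block and leaving out each library.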

Additional observations from a re-analysis of the deposited data

Results flagged for a closer look

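The change against wild-type ES cells differed between Lin28a-null cells and the libraries labelled Lin28b-null, by the direct limma test of the lines, for 9 genes with a log2 difference beyond 1. Of these, 8 were higher in Lin28a-null cells: Plagl1 by 4.20, Mest by 3.07, Igf2 by 2.13, Peg3 by 1.91, Slc38a4 by 1.75, H19 by 1.496, Cdkn1c by 1.20 and Dio3 by 1.08. Phlda2 was lower, with a difference of -1.27. Over all 15974 genes tested, 11.1% were higher and 4.28% lower beyond 1, and 58.5% had no overlap between the lines. Adjusted p ranged from 6.5e-06 for Plagl1 to 0.0092 for Phlda2, and all 3 libraries of each line lay apart from all 3 of the other in each of the 9 genes. The 9 were picked by this same test, so the lack of overlap is no separate support. Fibroblast markers were higher in Lin28a-null libraries, with sums of 5709 to 7635 TPM against 2593 to 3801 TPM, and their part in these differences was not tested. Slc38a4 fell in both lines and Plagl1, Mest and Dio3 did not pass in Lin28a-null cells against wild type.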

How the results depend on the processing

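Of 212 results for single imprinted genes 104 passed the threshold. These 104 include the 27 calls of the F test over the 4 lines, whose distance between line means has no direction to change. None of the other calls changed direction under any alternative. Of 3028 values under alternatives 2819 kept their side of the threshold, 160 were lost and 49 gained. Plagl1, Mest, Slc38a4, Zrsr1, Snrpn and Grb10 passed in all 14 alternatives in the libraries labelled Lin28b-null. Counts of imprinted genes passing moved by over 1.5 times in several settings, most often in double knockout iPS cells. In the libraries labelled Lin28b-null the count was 17 in place of 11 with all libraries of the table in one fit. In double knockout iPS cells it was 4 in place of 8 without a filter on low values 4 without the variance trend, 3 with a replicate block and 2 to 5 with any library left out. Of the 5 genes past 2-fold between the embryo pools, the count was 2 when a mean of 5 TPM was required. With each library left out in turn the counts ran from 8 to 17 in Lin28a-null cells, 10 to 14 in the libraries labelled Lin28b-null, 17 to 22 between these lines, 5 to 16 in untreated ilet7 cells, 8 to 10 on doxycycline, 2 to 5 in double knockout iPS cells and 26 to 29 for the 4 lines.

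The replicate numbers share no stated origin, and no comparison had all 3 same-number correlations over 0.1, so the libraries share only a number. With the replicate number as a block the counts were 12, 14, 18, 10, 9 and 3 in the order Lin28a-null, Lin28b-null, Lin28a-null against Lin28b-null, ilet7, doxycycline and double knockout, and 29 for the 4 lines. Quantile normalization moved the share of higher calls between the knockout lines from 55% to 44.8% over all genes. Values are sums over both alleles, and the origin of each line is not stated.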
